A study of Homo sapiens with 6 samples.

Results

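The genes described here are ATF4 and 9 others of the integrated stress response and the unfolded protein response: ATF3, DDIT3, DDIT4, ASNS, TRIB3, CHAC1, XBP1, SESN2 and HERPUD1. They were taken by gene symbol, with every probe annotated to them, in ES-2 cells that received either a miR-182 inhibitor or a control inhibitor. Of the 10 genes, 9 had a named probe, and HERPUD1 was not analysed here. The 9 genes had 15 of the 48803 probes on the array, and 13 of these probes were detected on all 6 arrays. The other 2 probes, both of ATF3, were detected on 0 arrays. The whole array had named probes for 18852 genes, of which 12087 were tested.

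Cells that run short of amino acids, accumulate unfolded protein in the endoplasmic reticulum (ER) or meet double-stranded RNA phosphorylate the translation factor eIF2. General translation then slows while the ATF4 messenger is translated more, and ATF4 protein activates genes of amino acid supply and, under lasting stress, of cell death. In parallel, the ER sensor IRE1 splices the XBP1 messenger, and the sensor ATF6 is cut free from the membrane, so that both induce chaperones and degradation factors of the ER. Much of this control acts on translation, splicing and protein cleavage, which an array of transcript levels does not measure.

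ES-2 is an established human ovarian cancer line that the labels class as clear cell. One group of 3 biological replicates was transfected with a hairpin inhibitor of hsa-mir-182 at a final concentration of 50 nM, and the other group of 3 with a negative control hairpin inhibitor modelled on a microRNA of Caenorhabditis elegans. The sources used here give no concentration for the control. Both groups received the same siRNA transfection reagent and the same serum-containing medium, and RNA was taken 48 h after transfection. The design text speaks of mimics where the labels and protocols speak of inhibitors, and the wording of the labels is used here. All 6 arrays come from this single line, and a lower level cannot be told apart as fewer expressing cells or less RNA per cell.

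The agent is directed at miR-182, whose 5p arm is shown because its seed (bases 2 to 8, in capitals) sets which transcripts it can pair with. The sequence is RefSeq's, from chr7:129770447-129770470 on the minus strand of GRCh38.p14. The labels name no arm. No probe was named for miR-182 itself, so its inhibition could not be read from the arrays, and 3′ UTRs of the stress genes were not searched here.
hsa-miR-182-5p: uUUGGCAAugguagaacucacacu

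The promoters of several of these genes carry the elements by which ATF4 and the ER sensors are known to act, and 4 such stretches are shown because they mark which of the measured genes hold an element near the start site. RefSeq windows of 250 bases before to 50 after each start were searched on both strands, and all 10 genes had a window. The CARE element, which ATF4 binds with a C/EBP partner, was searched as TGATGNAA, and the ER stress element ERSE, read by ATF6 and NF-Y, as CCAAT and CCACG with 9 bases of any kind between them. Of 2 further patterns, ERSE-II was searched as ATTGG and CCACG with 1 base of any kind between them, and UPRE as TGACGTGG. ERSE and ERSE-II share CCACG, and CCAAT is ATTGG read from the other strand, while UPRE read from its other strand holds CCACG too. CARE letters occurred in the windows of ATF3, ASNS, CHAC1 and HERPUD1 and in 4.46% of all 27305 genes with a window. ERSE letters occurred for XBP1 and in 0.0916% of all genes. ERSE-II letters occurred for HERPUD1 and in 0.0696% of all genes, and UPRE letters for 0 of the 10 and in 0.927% of all genes. ATF3, ASNS and XBP1 each had 2 windows, and the match lay in only 1 of them. A match is a description of letters and not a measured binding site, and its absence from these windows says nothing of sites farther away. In the lines that follow, each stretch is written on the gene's own strand with the matched letters in capitals. That of ATF3 lies at chr1:212565200-212565239 (plus strand), that of ASNS at chr7:97872453-97872492 (minus strand), that of CHAC1 at chr15:40953246-40953285 (plus strand, CARE on the opposite strand) and that of XBP1 at chr22:28800587-28800637 (minus strand), all on GRCh38.p14.
ATF3: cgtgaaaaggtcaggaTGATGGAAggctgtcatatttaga
ASNS: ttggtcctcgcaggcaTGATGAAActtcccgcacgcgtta
CHAC1: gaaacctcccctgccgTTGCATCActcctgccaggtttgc
XBP1: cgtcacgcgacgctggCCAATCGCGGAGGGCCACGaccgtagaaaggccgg

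The arrays were of similar quality. The median number of beads behind a probe was 40 to 41, and 41.7% to 46.0% of the probes on an array exceeded background (detection p under 0.05). Before normalization between arrays, the median deposited signal of an array ran from 43.5 to 49.4 units, so deposited signals also carry differences in brightness between arrays. On the first principal component of the genes tested, which held 29.4% of the variance, control replicate 3 lay farthest out, at 12.02 against a range of −7.81 to 4.09 for the other arrays. Keratins KRT7, KRT8 and KRT18 and the mesenchymal genes VIM and CDH2 were detected on all 6 arrays, while the epithelial genes CDH1 and KRT19 were detected on 0 and EPCAM on 2. Of the clear cell carcinoma markers NAPSA, GPC3 and LEFTY1 were detected on 0 arrays and PAX8 on 3, so the labelled histotype was not visible in them. Of the 6 white blood cell markers, CD14, CD79A and FCER1G were detected on all 6 arrays, LYZ on 4, CD3E on 1 and PTPRC on 0, and the highest group mean among them was a log2 signal of 5.16. Of the endothelial markers VWF was detected on 0 arrays and PECAM1 and CDH5 on all 6, CDH5 at a mean log2 signal of 10.04 with the inhibitor and 10.12 in the control. The part of these marker signals in the results was not tested. The summed log2 signals of the 6 white blood cell markers ran from 28.0 to 28.5 with the inhibitor and from 28.3 to 28.6 in the control.

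No stress response gene differed between the groups past the test. In limma, an adjusted p under 0.05 was reached by 0 of the 9 genes in either direction, and by 0% of all 12087 genes. The lowest adjusted p among the 9 was 0.635, that of DDIT4. At an unadjusted p under 0.05, 1 of the 9 (DDIT4, lower) stood out, against a background of 7.65% of all genes in either direction and 4.15% in the lower direction. After normalization, the 3 values of each group lay apart in 1 of the 9 (TRIB3), where 13% of all genes tested did so. Both counts are too small to set against these shares. The differences had mixed signs, with 5 of the 9 genes above 0 and 4 below, and a median of 0.061 log2 units against 0.000015 for all genes. The median of the 9 was 0.019 without normalization between arrays and 0.022 with median scaling, against −0.014 and −0.010 for all genes. Without inhibitor replicate 1 it was −0.0038, with 4 genes above 0, against 0.0046 for all genes. The median absolute difference of the 9 was 0.13, against 0.065 for all genes. That contrast rests on 9 genes, of which ATF3, CHAC1 and SESN2 lay near background, and it was not tested.

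Values below are log2 signals after background correction and quantile normalization, with each gene represented by its brightest probe. Differences are inhibitor minus control with the standard error of limma (n = 3 arrays per group), and adjusted p-values cover all genes tested.

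**Figure D1:**
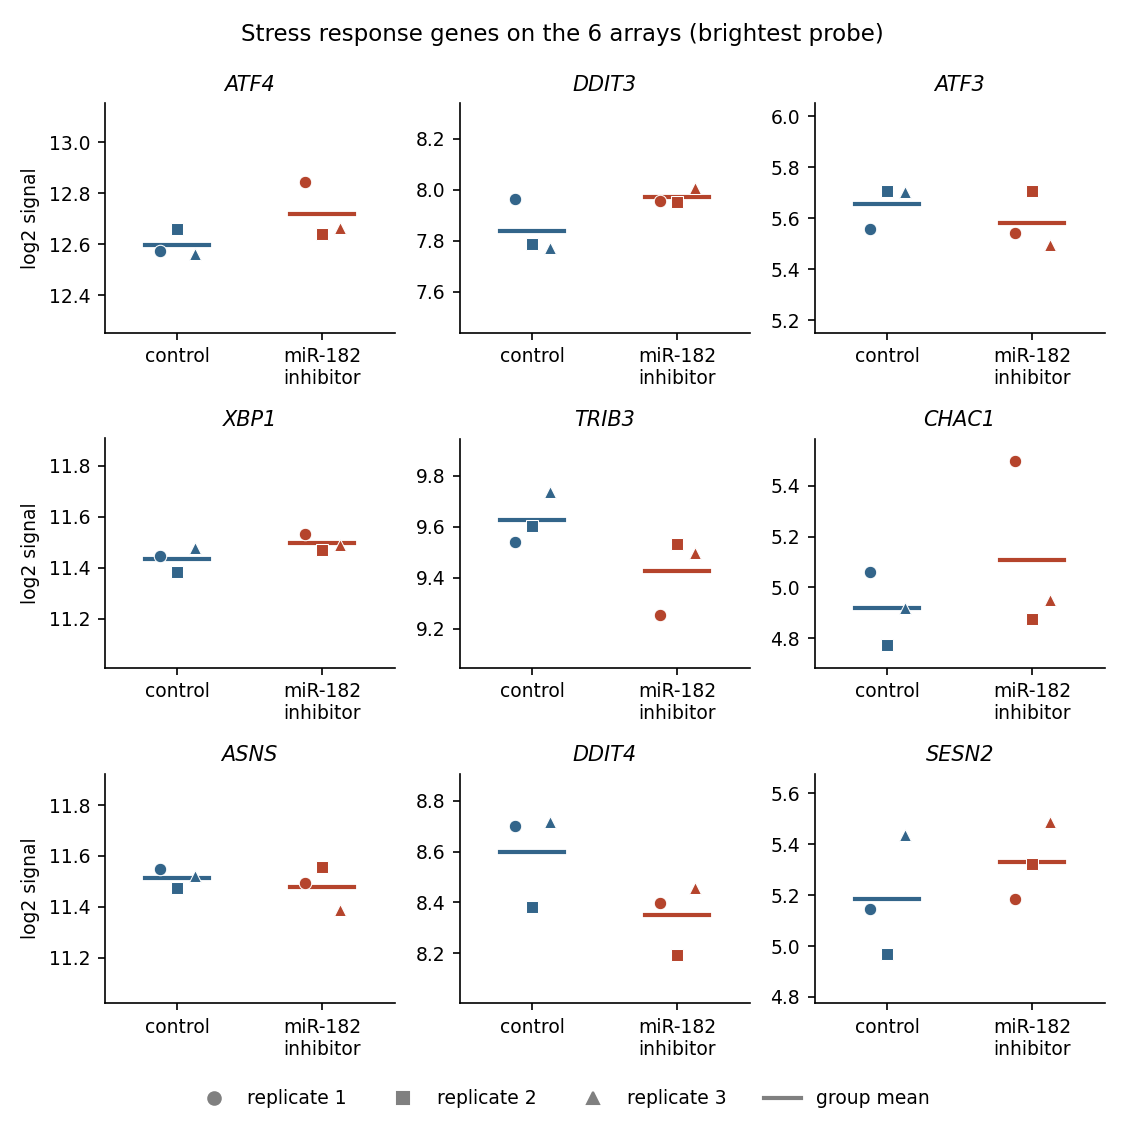
Log2 signal (y axis, every panel spanning 0.9 log2 units around its own centre) of 9 stress response genes in the control and miR-182 inhibitor groups. Each point is an array and each bar a group mean. The shape of a point gives the replicate number, which was not taken to pair arrays. The inhibitor points of TRIB3 all lie below the control points, and those of the other 8 genes overlap the control range.

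ATF4, the transcription factor at the head of the integrated stress response, was at 12.85, 12.64 and 12.66 with the inhibitor and at 12.57, 12.66 and 12.56 in the control. Inhibitor replicate 1 stood above all others, and the other inhibitor arrays lay near the top of the control range. The difference was 0.12 ± 0.08 (adjusted p = 0.736, limma), a ratio of 1.09 with a 95% interval of 0.965 to 1.22. Without inhibitor replicate 1 it was 0.054, without control replicate 3 it was 0.099, and without normalization between arrays it was 0.070. The deposited signal of this probe ran from 5817 to 7107 units. Before normalization between arrays, inhibitor replicate 2 was the highest array, and inhibitor replicate 1, at 6529 units, lay below control replicate 2 at 6680. Probe 2 of ATF4 (454 to 638 units) differed by 0.031 ± 0.103 and probe 3 (96.2 to 110 units) by −0.013 ± 0.083. All 3 intervals included 0, and probe 3 had the opposite sign.

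DDIT3 encodes CHOP, a C/EBP-family factor that ATF4 induces and that promotes cell death under lasting stress. Its log2 signals were 7.96, 7.95 and 8.01 with the inhibitor and 7.96, 7.79 and 7.77 in the control. The inhibitor arrays lay close together, with an SD of 0.031, and control replicate 1 lay among them while the other control arrays were lower. The difference was 0.13 ± 0.07 (adjusted p = 0.721, limma), or 1.10-fold with an interval of 0.978 to 1.23. Leaving out control replicate 1 gave 0.19, and leaving out control replicate 3 gave 0.097.

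ATF3, a stress-induced repressor and activator of the same basic leucine zipper class, was faint, with deposited signals of 71.0 to 84.8 units on its 1 detected probe. Its log2 signals were 5.54, 5.71 and 5.50 with the inhibitor and 5.56, 5.71 and 5.70 in the control. The groups overlapped almost fully, and the difference was −0.073 ± 0.079 (adjusted p = 0.863, limma). It was −0.13 without inhibitor replicate 2, −0.030 without inhibitor replicate 3 and −0.051 without control replicate 3, and −0.045 with the deposited value table. The other probes of ATF3 gave 38.0 to 45.7 units and were not well above background on any array.

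XBP1, the factor made active by the ER sensor IRE1, was the steadiest of the 9 genes, with a replicate SD of 0.041 log2 units, which 93.5% of all genes tested reached or exceeded. It was at 11.53, 11.47 and 11.49 with the inhibitor and at 11.45, 11.38 and 11.48 in the control. The groups overlapped through control replicate 3, and the difference was 0.061 ± 0.063 (adjusted p = 0.852, limma), or 1.04-fold with an interval of 0.945 to 1.15. Without control replicate 2 it was 0.035 and without control replicate 3 it was 0.082. It fell to 0.019 without normalization between arrays and to 0.022 with median scaling. Its second probe gave 0.040 ± 0.071. Probe sequences were not used here, so spliced and unspliced XBP1 transcripts were not separated.

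TRIB3, a pseudokinase that ATF4 and CHOP induce and that restrains ATF4 in turn, was the 1 gene of the 9 whose groups lay apart after normalization. Its log2 signals were 9.25, 9.53 and 9.50 with the inhibitor and 9.54, 9.60 and 9.74 in the control. The gap between the groups was narrow, from 9.53 to 9.54, and inhibitor replicate 1 was the lowest array. In the deposited signals, before normalization between arrays, the groups overlapped, inhibitor replicate 2 being the highest array at 864 units. The difference was −0.20 ± 0.09 (unadjusted p = 0.0566, adjusted p = 0.671, limma), which makes the control 1.15-fold brighter. It was −0.11 without inhibitor replicate 1 and −0.14 without control replicate 3. A difference of this size or more, in either direction, was found for 7.22% of all genes tested.

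CHAC1, an enzyme that degrades glutathione and a sensitive reporter of ATF4 activity, carried the CARE letters shown above and had the widest spread of the 9 genes. Its log2 signals were 5.50, 4.88 and 4.95 with the inhibitor and 5.06, 4.77 and 4.92 in the control. Inhibitor replicate 1 stood alone at the top, and the other inhibitor arrays lay within the control range. The difference was 0.19 ± 0.15 (adjusted p = 0.797, limma), and without inhibitor replicate 1 it was −0.0038. It was 0.30 without inhibitor replicate 2, and 0.10 with the deposited value table. Deposited signals of 51.3 to 69.9 units put this gene near background, where the spread over beads alone gave a mean error of 0.15 log2 units per array.

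ASNS, asparagine synthetase, is the amino acid response gene in whose promoter the CARE element has long been studied. It was at 11.49, 11.56 and 11.39 with the inhibitor and at 11.55, 11.47 and 11.52 in the control. The control values lay inside the range of the inhibitor values, and the difference was −0.036 ± 0.069 (adjusted p = 0.931, limma), or 0.976-fold with an interval of 0.876 to 1.09. Without inhibitor replicate 3 it was 0.010, without inhibitor replicate 2 it was −0.074, and without normalization between arrays it was −0.078. A second, dimmer probe pointed the other way, at 0.18 ± 0.13, with an interval that included 0, so the sign for ASNS depends on the probe.

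DDIT4 and SESN2 both restrain the growth kinase complex mTORC1. DDIT4, also called REDD1 and known to respond to hypoxia and glucocorticoids as well as to ATF4, was at 8.40, 8.19 and 8.46 with the inhibitor and at 8.70, 8.38 and 8.72 in the control. Control replicates 1 and 3 lay above all inhibitor arrays, while control replicate 2 lay among them. In the deposited signals, before normalization between arrays, the DDIT4 groups lay apart. They were at 334 to 362 units with the inhibitor and at 370 to 466 in the control. The difference was −0.25 ± 0.11 (95% interval −0.49 to −0.0086, unadjusted p = 0.0438, adjusted p = 0.635, limma), the farthest from 0 of the 9 genes, which makes the control 1.19-fold brighter. Leaving out 1 array moved it between −0.36 (without control replicate 2) and −0.17 (without inhibitor replicate 2), and it was −0.19 without control replicate 3. Of all genes tested, 3.29% lay at least as far from 0.

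SESN2, a leucine sensor of the sestrin family that p53 and ATF4 induce, was faint, with deposited signals of 55.3 to 71.0 units. Its log2 signals were 5.19, 5.32 and 5.48 with the inhibitor and 5.15, 4.97 and 5.44 in the control. The groups overlapped, control replicate 3 being nearly as high as the highest inhibitor array. The difference was 0.15 ± 0.12 (adjusted p = 0.805, limma). Without control replicate 3 it was 0.28, with an adjusted p of 0.871, and without control replicate 2 it was 0.039. The deposited value table gave 0.080.

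Taken probe by probe, 1 of the 13 detected probes, that of DDIT4, had an unadjusted p under 0.05, where 6.91% of all 21349 detected probes did, and 0 passed after adjustment (lowest adjusted p 0.709, limma).

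**Figure D2:**
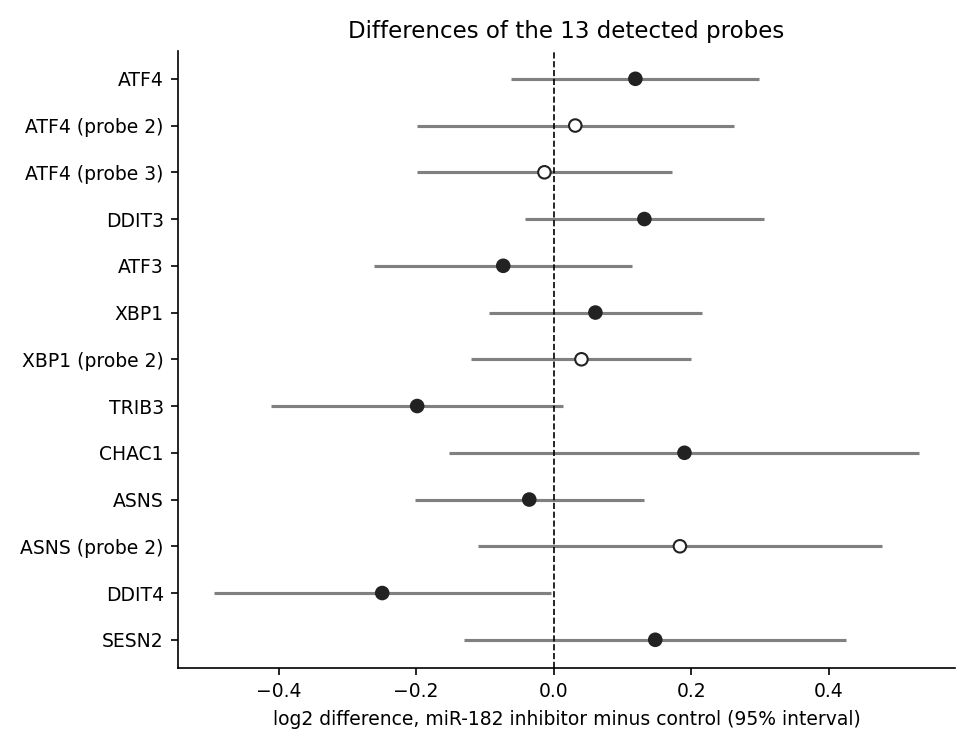
Log2 difference (x axis, miR-182 inhibitor minus control) of each detected probe of the 9 genes, with the 95% interval of the fit over all detected probes as a grey line. Filled points are the brightest probe of a gene and open points its other probes. The interval of DDIT4 ends just below 0 at −0.0042 before adjustment, and those of the other 12 probes include 0.

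Of the measured genes that hold a CARE match in a window, ATF3 and ASNS lay below 0 and CHAC1 above it. Without inhibitor replicate 1, however, CHAC1 lay at −0.0038, and the second probe of ASNS lay above 0. XBP1, with the ERSE match, lay at 0.061. After normalization, the highest value among the 6 arrays was that of inhibitor replicate 1 in 3 genes. It was that of inhibitor replicates 2 and 3 in 2 genes each and of control replicate 3 in 2. The lowest was that of control replicate 2 in 3 genes, of control replicate 3 in 2, of inhibitor replicate 3 in 2 and of inhibitor replicates 1 and 2 in 1 each. In the deposited signals, before normalization between arrays, inhibitor replicate 2 was highest for ATF4, ATF3, DDIT3, ASNS, TRIB3, XBP1 and SESN2. The 2 ATF3 probes that were not detected were also highest on that array, at 45.7 and 43.5 units. Such an order can thus reflect the brightness of the array and is not particular to these genes.

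**Figure D3:**
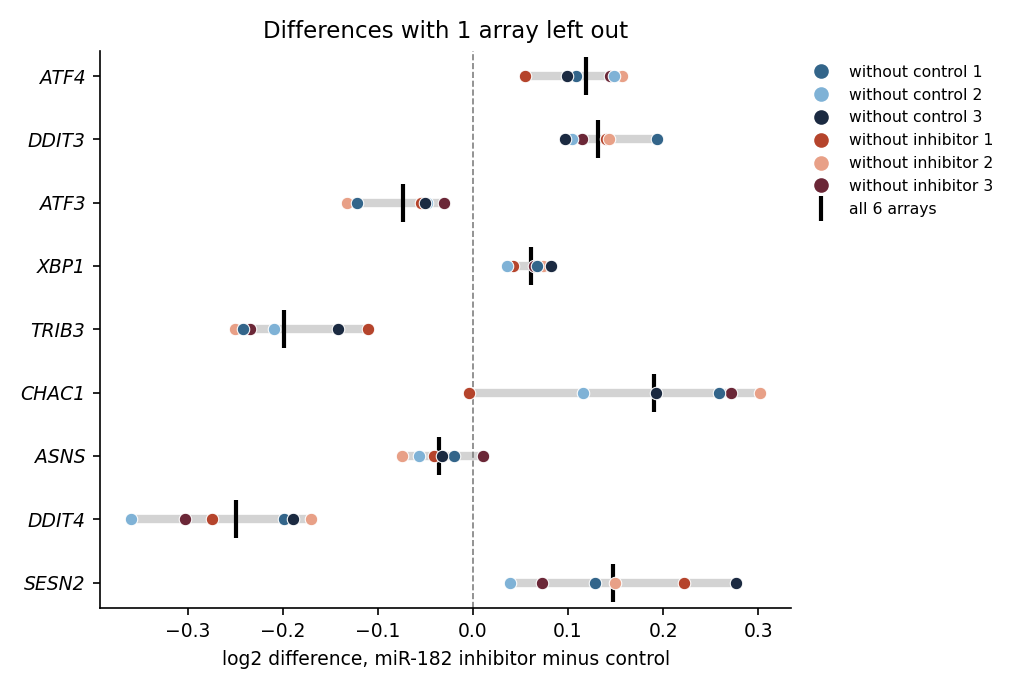
Log2 difference (x axis, miR-182 inhibitor minus control) of 9 stress response genes with all 6 arrays (black tick) and with each array left out in turn (coloured points, joined by a grey band). CHAC1 spans −0.0038 to 0.30, ASNS crosses 0 narrowly, and TRIB3 and DDIT4 stay below 0 in each of the 6 reduced sets.

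The wider pathway was described from 4 lists of other genes, together 83 genes, of which 80 had a named probe and 75 were tested. An adjusted p under 0.05 was reached by 0 of the 75. At an unadjusted p under 0.05 there were 3 higher and 2 lower, against 3.5% and 4.15% of all genes in those directions. Groups lay apart in 10 of the 75 genes, with the inhibitor above in 7 and below in 3, where 6.8% and 6.23% of all genes did so and 13% in either direction, which puts the 10 genes near the background. The lists' medians lay between −0.0081 and 0.041 log2 units.

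Upstream, the stress sensors and the control of eIF2 held 15 tested genes, 9 above 0 and 6 below, with a median of 0.041. Without normalization between arrays this median was 0.0098, against −0.014 for all genes. EIF2AK3, which encodes the ER sensor kinase PERK, was at 5.58, 5.39 and 5.51 with the inhibitor and at 5.45, 5.20 and 5.29 in the control, a difference of 0.18 ± 0.08 (adjusted p = 0.676). MBTPS2, a protease that cuts ATF6 within the membrane, differed by 0.13 ± 0.07, and its second probe by 0.0044. The 2 genes with the smallest p below 0 were the ATF6 relative ATF6B, at −0.18 ± 0.08 (unadjusted p = 0.0384, adjusted p = 0.624), and ATF6 itself at −0.074 ± 0.066, or −0.040 without control replicate 3. The deposited value table gave −0.098 for ATF6B and 0.10 for EIF2AK3. Both ATF6B and EIF2AK3 were faint, each with a mean bead error of 0.11 log2 units per array. The 3 inhibitor values of ATF6B lay below the control values, from 4.98 to 5.11 against 5.15 to 5.36. None of these genes passed the test in limma.

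Downstream, the other reported targets of ATF4 and CHOP held 26 tested genes, 16 above 0 and 10 below, with a median of 0.012. Without normalization between arrays this median turned to −0.0033, against −0.014 for all genes. MTHFD2, a folate enzyme of the mitochondrion, was at 10.52, 10.57 and 10.64 with the inhibitor and at 10.43, 10.45 and 10.32 in the control. All 3 inhibitor values lay above the control values, and the difference was 0.17 ± 0.07 (unadjusted p = 0.0304, adjusted p = 0.615, the lowest adjusted p of the 75 genes). GDF15, a secreted stress cytokine, was faint, at 5.89, 5.93 and 5.90 against 5.66, 5.86 and 5.68, also without overlap. It differed by 0.17 ± 0.07 (adjusted p = 0.624, limma), or by 0.11 with the deposited value table. On the other side of 0 were PYCR1, a proline synthesis enzyme, at −0.19 ± 0.08 (adjusted p = 0.655), and the lipoprotein receptor VLDLR at −0.075 ± 0.069, or −0.030 without control replicate 3. Other probes of PYCR1 gave −0.045 and 0.15, so its sign depends on the probe.

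ER chaperones and folding enzymes held 16 tested genes, 7 above 0 and 9 below, with a median of −0.0081. Without control replicate 3 there were 11 above 0 and the median was 0.026, and with array weights it was 0.0020. DNAJC3, a co-chaperone also known as p58IPK that inhibits eIF2 kinases, was at 5.97, 6.02 and 5.97 with the inhibitor and at 5.77, 5.62 and 5.94 in the control. DNAJC3 was faint, with a mean bead error of 0.090 log2 units per array, and its groups lay apart by a small margin. The difference was 0.21 ± 0.08 (unadjusted p = 0.0336, adjusted p = 0.624, limma). It was 0.29 without control replicate 3, 0.13 without control replicate 2 and 0.14 with the deposited value table. CANX, the lectin chaperone calnexin, differed by 0.14 ± 0.07 and by 0.053 on its second probe. HYOU1, a large chaperone of the ER, differed by −0.17 ± 0.07 (unadjusted p = 0.0428, adjusted p = 0.635) and by −0.052 on its second probe, and the disulfide isomerase PDIA6 by −0.091 ± 0.079, or by −0.020 without inhibitor replicate 1. None of the 16 passed the test.

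Degradation and translocation at the ER, the process to which HERPUD1 belongs, held 18 tested genes, 10 above 0 and 8 below. Their median of 0.0078 became −0.025 when no normalization between arrays was applied, with 4 of the 18 above 0. All 12087 genes then had a median of −0.014, with 5364 above 0. With arrays scaled by their medians, the 18 had a median of −0.022, again with 4 above 0. The median of all genes was then −0.010, with 5514 of 12087 above 0. SEC61B, a subunit of the translocation channel, was at 11.82, 11.70 and 11.70 with the inhibitor and at 11.84, 11.88 and 11.90 in the control, without overlap and with a difference of −0.13 ± 0.07 (adjusted p = 0.681). VCP, the ATPase that extracts proteins for the proteasome, differed by −0.14 ± 0.08, and by −0.084 without control replicate 3. UFD1, a cofactor of VCP, lay at 0.082 ± 0.073 and at −0.055 on its second probe, and it was 0.018 without control replicate 1. EDEM2, which trims the sugars of misfolded proteins, lay at 0.062 ± 0.073 and at 0.015 without inhibitor replicate 1. None of the 18 passed the test.

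**Figure D4:**
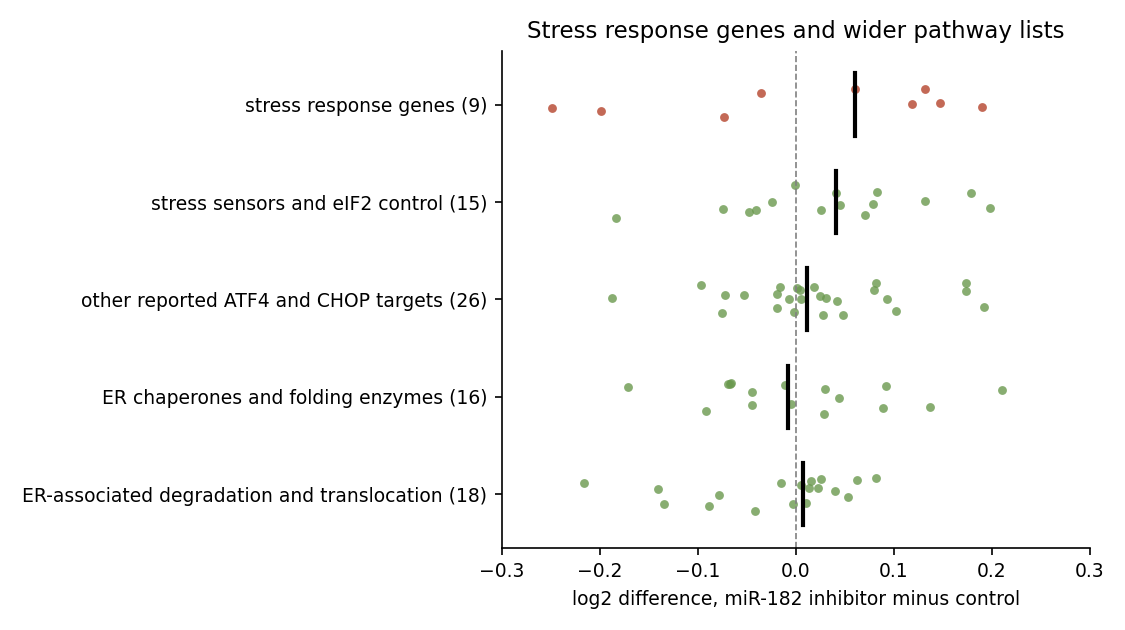
Log2 difference (x axis, miR-182 inhibitor minus control) of the 9 stress response genes (red) and of the tested genes of 4 wider pathway lists (green), 1 point per gene, with vertical jitter only for legibility and a black bar at each median. Every list has genes on both sides of 0, and all points lie between −0.25 and 0.21.

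Genes whose profile over the 6 arrays was most like that of ATF4 or DDIT4 were found by the root mean square distance between log2 values after subtraction of each gene's own mean, among genes of similar spread. For ATF4, out of 4086 candidates, these were PRSS23 at 0.020 log2 units, DECR2 at 0.028 and GABPB2 at 0.030. For DDIT4, out of 1672 candidates, they were TCTA at 0.057, GRIN2B at 0.058 and DEPP1 at 0.060. Their own differences were 0.12 to 0.15 for the genes like ATF4 and −0.24 to −0.18 for those like DDIT4. Differences near that of the member follow from the choice by the same arrays. GRIN2B was not detected on all 6 arrays. The other stress response genes were not among the candidates, and the likeness rests on 6 arrays.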

How the data were processed

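RNA of 6 ES-2 cultures was hybridised to Illumina bead arrays. The authors deposited linear intensities per probe, the mean over its beads with their SD and the bead count, per the file headers. A deposited detection value, a fraction that rises with the signal, was subtracted from 1 to serve as the detection p. BeadStudio is named in the submitters' processing notes. The authors' deposited value table holds linear intensities of the same arrays, put onto the distribution of the first inhibitor array (median 47.2 on every array). Within an array it keeps the order of signals, so ranks on the 6 arrays paired all 48803 probes with their names. It holds no ratio and no centring, and the sources used here do not give its method. GEO's platform annotation gave 28098 probes 1 gene, 13 several and 20692 none, and 0 symbols needed an update through Entrez identifiers.

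In R 4.3.3 with limma 3.58.1, neqc corrected the background (normal-exponential model, offset 16), applied quantile normalization and took log2. Probes with a detection p under 0.05 on at least 3 arrays entered (21349), each gene by its brightest probe (12087 genes). The groups were compared by lmFit and eBayes (2-sided, Benjamini-Hochberg over all genes). The script was tested on simulated data. The number of arrays limits the precision, and no scan batch was given.

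The genes and the pathway lists, written from general knowledge, were chosen with earlier results of these data known. Named were all members, from each list the 2 genes with the smallest p per direction, and, for ATF4 and DDIT4, the 3 nearest profiles among genes whose SD was within 1.25-fold. Replicate numbers are shared between the groups, but deviations of same-numbered arrays correlated across genes at −0.0060 to 0.020, so the numbers were not taken as pairs. Alternatives were a replicate block, other scalings, no background correction, the value table, other detection filters, a trended robust prior, array weights, other probes, and each array left out.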

Additional observations from a re-analysis of the deposited data

How the results depend on the processing

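No stress response gene and no pathway gene tested passed the adjusted threshold under the 16 alternatives run on all of them, nor did ATF4, ASNS or XBP1 on their second probes. The lowest adjusted p of the 9 genes was 0.516 (DDIT3, without control replicate 1). Over all genes, limma called 0, but 5 without normalization between arrays (HILPDA, HNRNPA1P33, MYBPC1, PXDN and SNAR-A1, named after their values were seen), and the cause was not tested. In that setting the fit gave all 9 stress response genes and the other named genes the same standard error, 0.137, so their own spread did not enter. With the replicate number as a block, 0 genes were called, and DDIT4 kept its difference of −0.25 with an adjusted p of 0.613. Its unadjusted p in limma was 0.0084 with the block and 0.0438 without it. ATF4, ATF3, DDIT3, DDIT4, TRIB3, XBP1 and SESN2 kept their sign under these 16 alternatives, and so did ATF4 and XBP1 on their second probes, while ATF4 probe 3 lay at −0.013. ASNS turned to 0.18 on its second probe, and ran from −0.074 to 0.010 with 1 array left out, CHAC1 from −0.0038 to 0.30, ATF4 probe 2 from −0.061 to 0.11 and ATF4 probe 3 from −0.064 to 0.042. Named genes that turned were UFD1 (−0.055) and GABPB2 (−0.068), both on their second probe, and PYCR1 (0.15) on probe 3. ATF3, CHAC1 and SESN2 lay near background, with mean bead errors of 0.088, 0.15 and 0.12 log2 units per array. Without background correction or with the deposited value table their differences moved toward 0 by over 1.5 times.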
